A study of Spirodela polyrhiza with 16 samples.

Results

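The bZIP transcription factors of the giant duckweed Spirodela polyrhiza were taken from the deposited expression table as every gene whose annotation holds a bZIP domain (Pfam PF00170 or PF07716) or whose Swiss-Prot homolog is named a bZIP transcription factor or a transcription factor TGA. The rule gave 45 of 20389 genes. A domain brought in 37 of them, 33 through PF00170 and 4 through PF07716, and 8 came in by the homolog's name only. Swiss-Prot homologs were given for 41 of the 45 and none for 4, and such a match names the closest known protein without showing what the duckweed gene does. The annotation put 9 of the 10 TGA homologs among the genes with the DOG1 domain PF14144, and 5 bZIP genes carried the MFMR domain found in plant G-box binding factors. The 45 genes lay on 15 of the 20 chromosomes, and their coding length ran from 273 to 5394 bases with a median of 1143, against 846 over all genes.

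bZIP proteins bind DNA as dimers. A basic region contacts the DNA, in most plant members at sites built around an ACGT core, and a leucine zipper next to it holds the dimer together and selects the partner. In plants the family divides by function. TGA factors work with NPR coactivators in salicylic acid responses and, in Arabidopsis roots, in nitrate responses. HY5 and its relative HYH promote light responses. ABI5 and ABF proteins carry abscisic acid signals, the C and S1 groups act in low-energy and seed storage programmes, bZIP17 and bZIP60 in the unfolded protein response, and bZIP19 in zinc deficiency.

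RNA was measured in Spirodela polyrhiza clone 9509, a floating plant made of leaf-like fronds with roots that hang into the medium. Plants were seeded into 250 ml flasks with 100 ml of medium, the medium was exchanged on day 10, and the plants were harvested on day 11. The plants of a flask were split into fronds and roots, and each pool of fronds or of roots made 1 biological replicate, per the labels. The 4 groups of 4 libraries were control fronds and control roots, whose new medium was complete, and no-phosphate fronds and no-phosphate roots, whose new medium lacked KH2PO4 for the last day. All 16 libraries came from the same clone, and a pool holds all cell types of the organ, so fewer cells of a type and less RNA per cell cannot be told apart in any value below. The whole reads recovered from the deposited FPKM (fragments per kilobase of gene, scaled to the size of the library) summed to between 6325297 and 12437151 per library. As a check of the tissue labels, 16 genes of chlorophyll-binding proteins and the small Rubisco subunit summed to a median of 46213 FPKM in control fronds and 41729.6 in no-phosphate fronds, against 18268 and 16172 in control and no-phosphate roots, and 3 of the 16 had the higher mean in roots. A list of 18 root genes separated the organs less, with medians of 271 and 268 FPKM in fronds and 328 and 310.0 in roots, and 9 of the 18 had the higher mean in roots. The chlorophyll-binding and Rubisco transcripts were thus also plentiful in the root pools, and the part of frond material in the values of roots was not tested.

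Levels of the bZIP genes spanned a wide range. Over the 16 libraries 14 of the 45 averaged at least 50 FPKM, 33 averaged at least 10 and 8 averaged under 5. The highest mean belonged to Sp01g01081, a short gene of 342 bases (chromosome 1, bases 7466436 to 7466777) whose homolog is bZIP53, an Arabidopsis S1 factor of low-energy and seed maturation genes. This gene came in by the homolog's name only and had no annotated bZIP domain. Its libraries read 133, 134, 119.7 and 137 FPKM in control fronds, 196, 155, 176 and 129 in no-phosphate fronds, 283, 119, 218 and 109 in control roots and 114, 434, 264 and 216 in no-phosphate roots. The root libraries of either medium spread from below the fronds to well above them. The next highest means were 128 FPKM for Sp13g00495, 121 for Sp06g00352, 118 for Sp01g01111 (TGAL1) and 94.2 for Sp16g00028 (TGAL4). Sp13g00495 is a composite model that joins a ubiquitin-conjugating enzyme with MFMR and bZIP domains, and Sp06g00352 has no Swiss-Prot homolog. Composite models also stand at Sp18g00218 (a PHD finger homolog of TITANIA with MFMR and bZIP domains), Sp10g00819 (a cyclophilin with bZIP and DOG1 domains) and Sp16g00077 (an F-box domain beside a bZIP18 homolog), and the reads of their parts cannot be separated.

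A mean of at least 0.5 FPKM over all libraries, the minimum for the test, was reached by 41 of the 45 genes and by 81.4% of all genes. The other 4 were nearly silent. Sp10g00819 had 112 reads in the 16 libraries together, Sp12g00338 had 32, and Sp04g00099, a homolog of ABI5, had 24. Sp06g01132, a homolog of bZIP18, had 0 reads in every library, where 3 reads would have been worth 0.676 to 1.61 FPKM, a limit that covers counting error only.

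**Figure D1:**
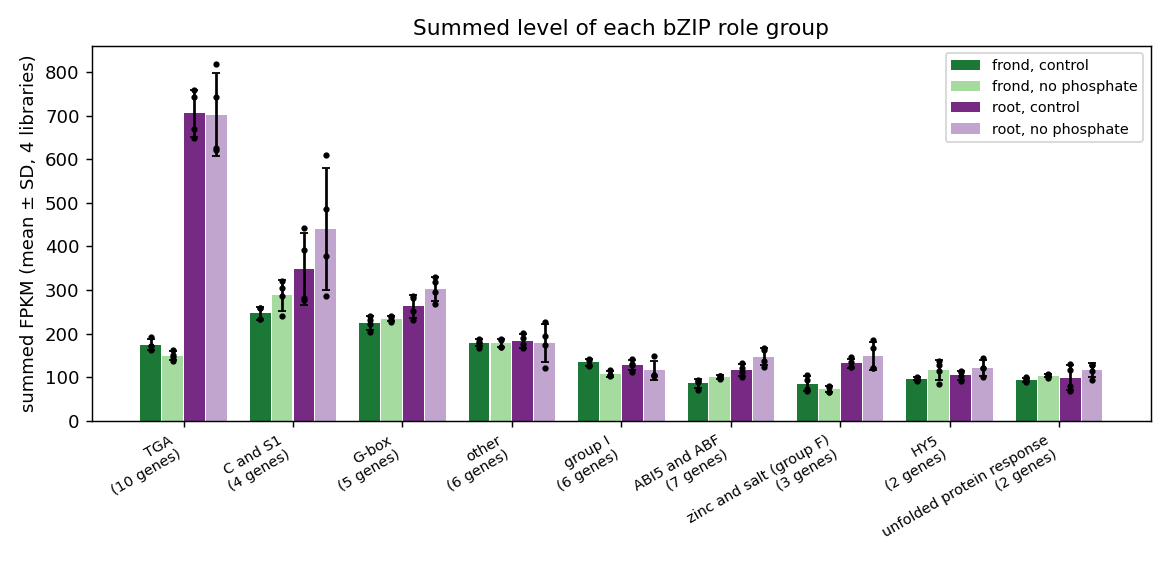
Summed FPKM of the bZIP genes in each role group, by organ and medium. Bars are means, error bars are SD and points are the 4 libraries of a group. TGA homologs summed to 174 ± 12.4 FPKM in control fronds and 706 ± 53.7 in control roots, while the sums of the HY5 and unfolded protein response genes overlapped between all 4 groups of libraries.

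The clearest difference in the family was between organs. In control medium 26 of the 41 tested bZIP genes differed between roots and fronds at an adjusted p under 0.05 (limma on log2(FPKM + 1), Benjamini-Hochberg over 16598 genes). That is 63.4% of them, where 59.8% of all tested genes were called, so the number of calls alone was near the background. The direction was uneven. Of the bZIP genes, 20 (48.8%) were higher in roots and 6 (14.6%) were lower, against 28.8% higher and 31.0% lower over all genes. Without phosphate 28 of the 41 (68.3%) were called, against 67.6% of all genes. Here 21 bZIP genes (51.2%) were higher in roots and 7 (17.1%) lower, where all genes gave 32.6% and 35.0%. The median root minus frond difference of the bZIP genes was 0.30 on the log2 scale in control medium and 0.48 without phosphate, and the median of all genes was -0.02 in either medium.

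The TGA homologs supplied 10 of the genes higher in roots in either medium. Among the other 31 tested bZIP genes, 10 were higher in roots in control medium, with a median difference of 0.15, where 28.8% of all genes were higher. Without phosphate 11 were higher, with a median of 0.20, where 32.6% of all genes were. Outside the TGA homologs the share of higher calls was thus near that of all genes. The lower calls, 6 in control medium and 7 without phosphate, were all among these 31, where 31.0% and 35.0% of all genes were lower. The scaling of the libraries, which in the deposited values differed between fronds and roots, also moved the split. With the FPKM rescaled to the same sum in every library, the median of all genes shifted by 0.24 in control medium and 0.25 without phosphate. The bZIP calls then became 26 higher and 2 lower in control medium, and 27 higher and 6 lower without phosphate. On this scaling the calls over all genes were 6636 higher and 3805 lower in control medium, and 7018 higher and 4536 lower without phosphate.

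The organ pattern was much alike in the separate libraries of the 2 media. Of the bZIP genes, 24 were called in the same direction in both media, which is 92.3% of the control calls and 85.7% of the no-phosphate calls, and 0 were called in opposite directions. Over all genes the shares were 90.2% and 79.9%. The roots and fronds of control medium did not overlap in 22 of the 41 genes, against 54.7% of all genes, and in 24 without phosphate, against 59.6%.

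**Figure D2:**
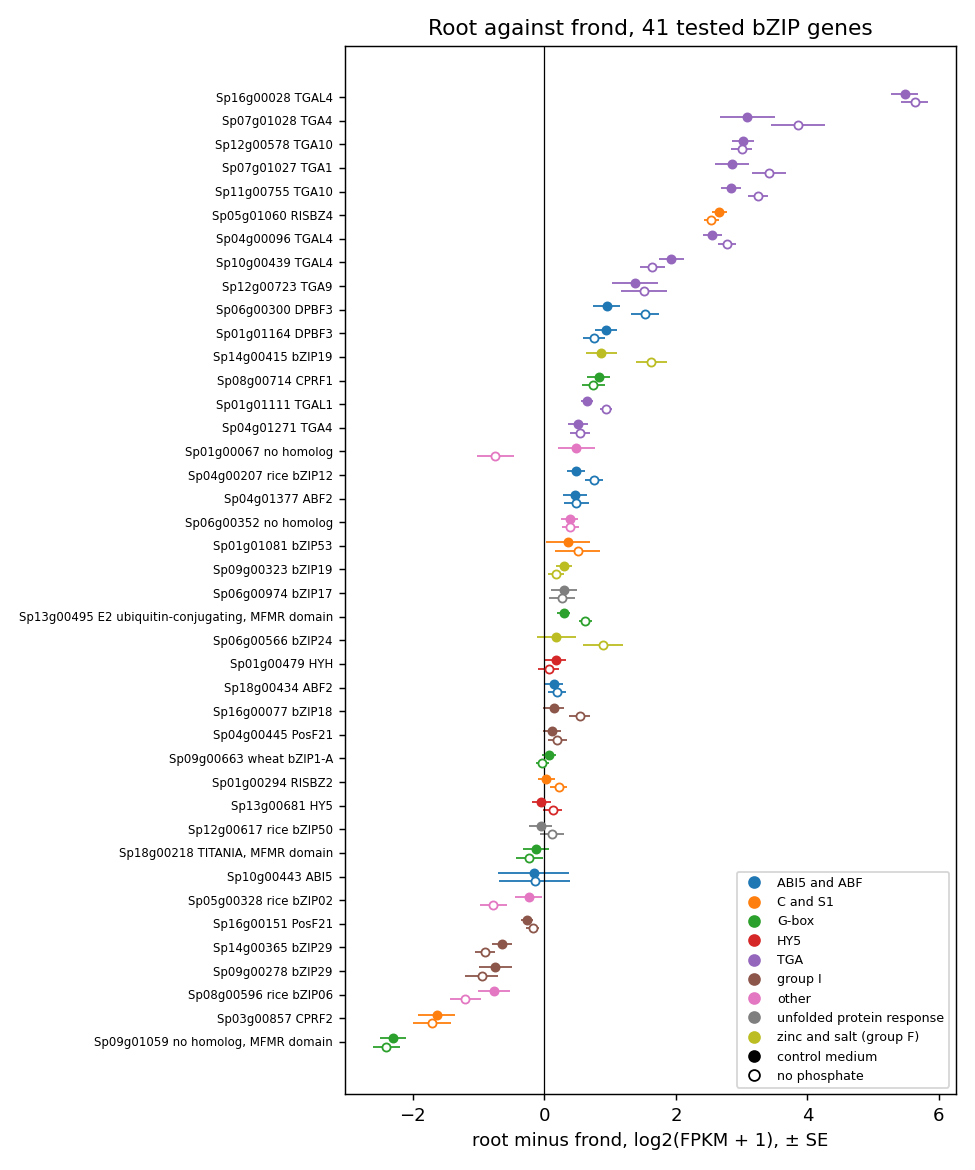
Root minus frond difference on the log2(FPKM + 1) scale for each of the 41 tested bZIP genes, with filled points for control medium, open points for no phosphate, bars for the standard error and colours for role groups. The 10 TGA homologs all lie to the right of 0, from 0.51 to 5.48 in control medium, and Sp09g01059 lies farthest to the left at -2.30.

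TGA factors take their name from the TGACG sequence they bind, and they act with NPR coactivators in other plants. Of the 10 duckweed homologs, Sp10g00439, Sp07g01027, Sp07g01028 and Sp12g00723 came in by the homolog's name only and had no annotated bZIP domain. All 10 were higher in roots than in fronds in control medium and all 10 without phosphate. Their summed level was 174 ± 12.4 FPKM (SD, n = 4) in control fronds and 706 ± 53.7 in control roots, a ratio of 4.06. Without phosphate the sums were 149 ± 10.7 and 703 ± 96.3, a ratio of 4.72. The TGA share of all bZIP FPKM was 13.2% in control fronds and 34.0% in control roots, and 11.1% and 31.0% without phosphate. The 10 calls held in both media under every alternative run, with a highest adjusted p of 0.0254 in control medium and 0.0147 without phosphate.

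The largest difference was that of Sp16g00028 (chromosome 16, bases 172003 to 175374), a homolog of the rice TGA factor TGAL4. Its control fronds read 2.74, 4.14, 2.26 and 3.80 FPKM and its control roots 216, 167, 208 and 153. Its no-phosphate fronds read 2.08, 2.03, 4.37 and 2.71 and its no-phosphate roots 179, 158, 240.3 and 161. Every root library was far above every frond library, and the media overlapped within each organ. The ratio of the means was 57.6-fold in control medium and 65.9-fold without phosphate, with log2 differences of 5.48 ± 0.20 (SE, adjusted p 2.00e-12) and 5.63 ± 0.20 (adjusted p 1.45e-12, limma). Among 16598 tested genes this difference ranked 10 in control medium and 11 without phosphate.

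The other 2 homologs of TGAL4 were root-rich to a smaller degree. Sp04g00096 (chromosome 4, bases 442114 to 449423) read 22.2, 23.8, 21.3 and 25.4 FPKM in control fronds and 164, 125, 156 and 122 in control roots. Sp10g00439 (chromosome 10, bases 2758540 to 2762056) read 6.03, 5.68, 8.95 and 6.24 in control fronds and 32.6, 28.5, 36.1 and 18.4 in control roots. The organs did not overlap for either gene. The log2 differences were 2.55 ± 0.14 and 1.93 ± 0.19 (SE), with adjusted p of 2.70e-10 and 2.16e-07. Sp04g00096 has an ABI5 homolog, the nearly silent Sp04g00099, 12770.0 bases away with 2 gene models between them.

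Homologs of TGA9 and TGA10, which act in anther development in Arabidopsis, were also transcribed in roots here. Sp11g00755, a homolog of TGA10, read 10.4, 14.2, 18.3 and 12.3 FPKM in control fronds and 83.9, 103, 111 and 118 in control roots. The second homolog, Sp12g00578, read 0.728, 1.22, 1.52 and 0.880 in control fronds and 18.2, 14.3, 15.97 and 14.99 in control roots. Both were well separated between the organs, but Sp12g00578 stayed at a far lower level in the roots. Their log2 differences were 2.84 ± 0.15 and 3.02 ± 0.16. The homolog of TGA9, Sp12g00723, rested at 3.71 ± 2.39 FPKM in control fronds and 10.2 ± 1.07 in control roots, with a log2 difference of 1.38 ± 0.35 and an adjusted p of 0.00285. Its frond libraries ran from 1.38 to 6.97 FPKM and stayed below the root libraries.

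In Arabidopsis TGA1 and TGA4 are close relatives that act in defence and in the nitrate response of roots. Their duckweed homologs Sp07g01027 (TGA1, plus strand, chromosome 7, bases 7488815 to 7491417) and Sp07g01028 (TGA4, minus strand, chromosome 7, bases 7491432 to 7491800) are neighbours, with 14 bases between their ends and 0 gene models between them. Sp07g01027 read 1.73, 2.30, 0.599 and 1.72 FPKM in control fronds and 24.7, 14.8, 11.1 and 20.8 in control roots. Sp07g01028 read 3.01, 1.80, 0.393 and 0 in control fronds and 23.5, 18.2, 8.26 and 17.7 in control roots. Both genes were near 0 in fronds, and root library 3 was the lowest control root for each. The log2 differences were 2.85 ± 0.26 and 3.09 ± 0.41 in control medium and 3.41 ± 0.26 and 3.86 ± 0.41 without phosphate. Whether strand was used in counting is not stated in the labels or the processing notes, so reads near the shared end may be assigned to either gene. They had 1903 and 608 reads over the 16 libraries.

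The second homolog of TGA4, Sp04g01271, and the TGAL1 homolog Sp01g01111 were plentiful in both organs. Sp01g01111 read 87.9, 98.4, 89.7 and 90.8 FPKM in control fronds and 131, 150.0, 152 and 143 in control roots, without overlap. Its log2 difference was 0.64 ± 0.09, and 0.94 ± 0.09 without phosphate. Sp04g01271 read 23.8, 33.1, 25.5 and 28.7 in control fronds and 41.2, 38.8, 49.2 and 31.7 in control roots. It was the only TGA homolog whose control organs overlapped, with a log2 difference of 0.51 ± 0.15 and an adjusted p of 0.00631.

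**Figure D3:**
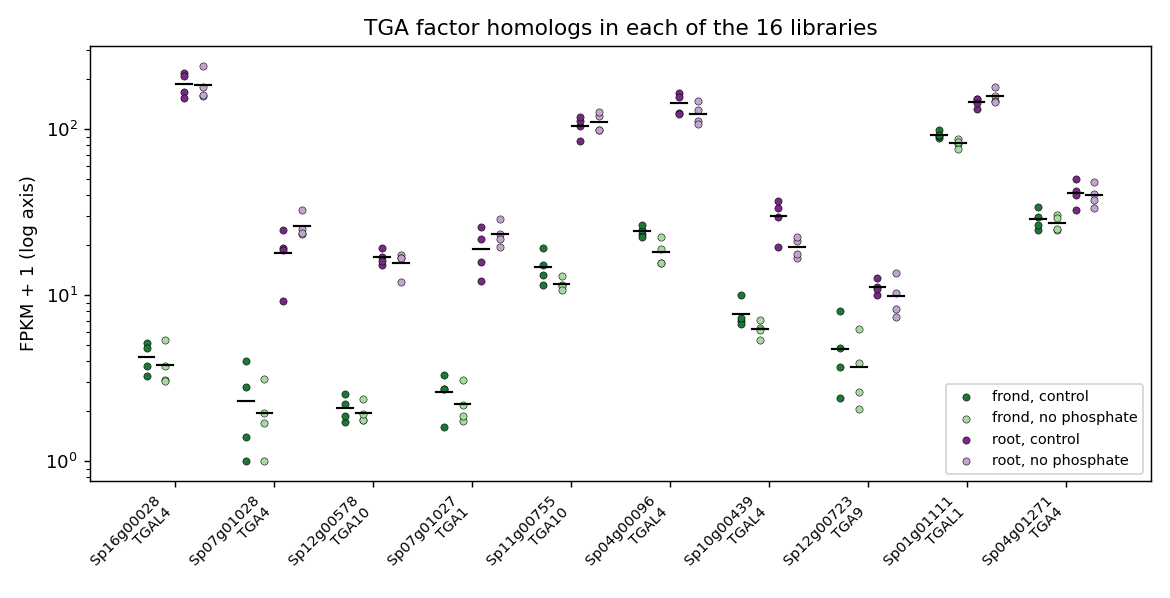
FPKM + 1 on a log axis for the 10 TGA homologs, with a point for each library and a bar for the group mean. Fronds are green and roots purple, with the paler shade for no phosphate. Sp16g00028 goes from 3.24 ± 0.881 FPKM in control fronds to 186 ± 30.8 in control roots, and the organs overlap in control medium for Sp04g01271 only.

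Outside the TGA group, the largest excess in roots was that of Sp05g01060 (chromosome 5, bases 6911198 to 6915361), a homolog of RISBZ4, a rice relative of the seed storage activator RISBZ1. Its libraries read 14.2, 18.9, 18.6 and 18.1 FPKM in control fronds and 110.0, 116, 119 and 116 in control roots. The no-phosphate fronds read 22.0, 18.3, 21.9 and 23.3 and the no-phosphate roots 127, 115, 151 and 123. Roots were several times higher in every library, and the log2 difference was 2.66 ± 0.11 in control medium and 2.54 ± 0.11 without phosphate. The other C and S1 genes did not follow it. Sp03g00857 (chromosome 3, bases 4567046 to 4570422), a homolog of the parsley factor CPRF2, read 62.3, 76.2, 68.5 and 72.4 in control fronds and 14.4, 20.6, 26.0 and 28.4 in control roots. It was lower in roots in every library, with a log2 difference of -1.64 ± 0.29 (adjusted p 1.26e-04), and of -1.71 ± 0.29 without phosphate (adjusted p 6.68e-05). Sp01g00294, a homolog of RISBZ2, differed by 0.03 ± 0.13 and the bZIP53 homolog Sp01g01081 by 0.36 ± 0.34, and neither was called in either medium.

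In the ABI5 and ABF group, whose proteins answer to abscisic acid, 4 of the 6 tested genes were higher in roots and 0 lower in either medium, where 28.8% of all genes were higher in control medium and 32.6% without phosphate. The 2 homologs of DPBF3, a factor of embryo genes in Arabidopsis, were low in level. Sp06g00300 read 3.97, 4.26, 2.00 and 4.56 FPKM in control fronds and 7.15, 7.85, 8.66 and 7.60 in control roots, and Sp01g01164 averaged 2.06 ± 0.642 and 4.78 ± 0.673. Their log2 differences were 0.95 ± 0.21 and 0.94 ± 0.17, and the organs did not overlap for either gene. Sp04g00207, a homolog of the rice factor bZIP12, differed by 0.48 ± 0.14 without overlap. Sp04g01377, a homolog of ABF2, differed by 0.47 ± 0.19 with overlapping libraries (adjusted p 0.0433). The second homolog of ABF2, Sp18g00434, and the tested homolog of ABI5, Sp10g00443, were not called. Sp10g00443 was uneven within groups, its control roots reading 0.479, 1.31, 2.08 and 7.80.

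Among the G-box group, Sp09g01059 (chromosome 9, bases 6688803 to 6691527) had the largest excess in fronds of any tested bZIP gene. It has an MFMR domain and no Swiss-Prot homolog. Its libraries read 17.7, 18.0, 13.4 and 13.5 FPKM in control fronds, 3.44, 1.58, 3.39 and 1.501 in control roots, 15.5, 20.5, 14.4 and 16.5 in no-phosphate fronds and 1.82, 2.46, 2.31 and 2.83 in no-phosphate roots. Every frond library was above every root library, and the means differed 6.31-fold in control medium and 7.12-fold without phosphate. The log2 differences were -2.30 ± 0.20 (adjusted p 6.76e-08) and -2.40 ± 0.20 (adjusted p 3.41e-08). Sp08g00714, a homolog of the parsley G-box factor CPRF1, went the other way, at 32.0 ± 6.83 FPKM in control fronds and 57.3 ± 10.4 in control roots with a log2 difference of 0.83 ± 0.18. The composite model Sp13g00495 differed by 0.29 ± 0.10 with no overlap. The wheat bZIP1-A homolog Sp09g00663 and the composite model Sp18g00218 were not called in either medium.

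Group I holds homologs of bZIP29, bZIP18 and PosF21, Arabidopsis factors of which bZIP29 is known from proliferating tissue. Of its 5 tested genes 3 were lower in roots in control medium and 0 higher, and without phosphate 2 were lower and 1 higher. Over all genes 31.0% were lower in control medium and 35.0% without phosphate. The gene higher in no-phosphate roots was the bZIP18 homolog Sp16g00077, at 49.6 ± 5.97 FPKM in no-phosphate fronds and 74.7 ± 24.2 in no-phosphate roots, with overlapping libraries, a log2 difference of 0.54 ± 0.16 and an adjusted p of 0.00745. The homologs of bZIP29 were both lower in roots. Sp14g00365 read 17.6, 16.7, 14.5 and 17.2 FPKM in control fronds and 9.24, 12.5, 10.6 and 8.89 in control roots, without overlap, and Sp09g00278 averaged 14.8 ± 3.12 and 8.91 ± 4.11 with overlap. Their log2 differences were -0.64 ± 0.15 and -0.75 ± 0.25, and with the rescaled FPKM both lost their calls, at -0.37 and -0.49. Sp09g00278 also lost its call without control frond library 1, at -0.65, or control root library 4, at -0.50. The PosF21 homolog Sp16g00151 differed by -0.26 ± 0.10 (adjusted p 0.0301) and was not called without phosphate. Its control call ended without control frond library 1, 2 or 3 or control root library 2 or 4, and rescaling moved the difference to 0.0018. Sp08g00596, a homolog of the rice factor bZIP06 outside these groups, was lower in roots, with a log2 difference of -0.77 ± 0.24 in control medium and -1.20 ± 0.24 without phosphate. Its control call was lost with the rescaled FPKM, at -0.49.

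Zinc factors bZIP19 and bZIP23 of Arabidopsis switch on zinc uptake when the metal is scarce, and both duckweed homologs of bZIP19 were called higher in control roots. Sp14g00415 (chromosome 14, bases 2205405 to 2209236) read 58.6, 67.7, 35.5 and 36.0 FPKM in control fronds and 84.0, 100.5, 86.6 and 80.3 in control roots. All its root libraries were above all its frond libraries of the same medium, with a log2 difference of 0.87 ± 0.23 in control medium and 1.62 ± 0.23 without phosphate. Sp09g00323 differed by 0.30 ± 0.12 in control medium with overlapping libraries and was not called without phosphate. Sp06g00566, a homolog of bZIP24, which acts in salt responses in Arabidopsis, was called only without phosphate, at 0.89 ± 0.30. The difference between the media was not called for any of these genes.

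The light factors and the unfolded protein response factors were not called between the organs. Sp13g00681, the homolog of HY5, averaged 31.8 ± 2.69 FPKM in control fronds and 30.8 ± 2.64 in control roots. Its log2 difference of -0.05 had a 95% interval of -0.36 to 0.27. The HYH homolog Sp01g00479 averaged 64.6 ± 3.27 and 73.3 ± 8.03, with an interval of -0.17 to 0.52. Sp12g00617 is a homolog of rice bZIP50, whose RNA is spliced when unfolded protein builds up, and it averaged 77.9 ± 3.57 and 78.2 ± 27.0 FPKM with an interval of -0.43 to 0.32. The membrane-bound factor bZIP17 has the homolog Sp06g00974, at 15.6 ± 1.196 and 20.4 ± 8.54 FPKM and an interval of -0.13 to 0.72. None of these 4 genes passed the threshold in either medium, and a miss of the threshold does not show that the organs were equal.

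One day without phosphate changed no bZIP gene at the threshold. In fronds 0 of the 41 were called, against 4.41% of all genes (2.11% higher and 2.30% lower without phosphate). In roots 0 were called, against 0.422% (0.355% higher and 0.0663% lower). The difference between the responses of roots and fronds called 0 bZIP genes and 0% of all genes. At an unadjusted p under 0.05 limma gave 11 bZIP genes in fronds, 6 higher and 5 lower without phosphate, 4 in roots, 1 higher and 3 lower, and 4 for the difference. Over the 16598 genes tested, 3444 passed this level in fronds, 2699 in roots and 1843 for the difference. The 2 frond groups fitted alone gave 3 calls and the rescaled FPKM 1, in fronds, and leaving out single libraries gave up to 2 calls in either organ, on the genes named below. The control and no-phosphate libraries did not overlap for 7 of the 41 genes in fronds, against 19.1% of all genes, and for 1 in roots, against 5.33%.

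The errors give a rough bound on what could have been missed. Each gene had a spread estimate shared by the 4 groups, so its standard error was the same in fronds and in roots. Between replicates, the ratio of chi-square to degrees of freedom ran from 3.68 to 16.7 in fronds and from 9.26 to 51.6 in roots. The intervals may therefore be too narrow for roots and too wide for fronds. The standard error of a phosphate difference ranged from 0.09 to 0.54 with a median of 0.18, and the median 95% interval reached 0.37 to either side of the estimate. The interval lay within 1 log2 unit of 0 for 34 genes in fronds and for 36 in roots. The median phosphate difference was -0.09 in fronds and 0.08 in roots.

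The smallest adjusted p in fronds was 0.05003, for the bZIP18 homolog Sp16g00077 (chromosome 16, bases 378890 to 384974) with its F-box domain. Its control fronds read 74.7, 81.1, 73.2 and 69.8 FPKM and its no-phosphate fronds 46.9, 44.98, 48.0 and 58.3. Every no-phosphate frond library was below every control frond library, and the log2 difference was -0.59 ± 0.16. It passed the threshold with the rescaled FPKM, at -0.63, with the frond libraries fitted alone, and without no-phosphate frond library 8, at -0.67, or without no-phosphate root library 5 or 6. In roots the libraries overlapped, at 87.1, 86.9, 82.9 and 73.3 in control and 109.6, 54.7, 63.9 and 70.5 without phosphate, with a log2 difference of -0.19 ± 0.16 and an adjusted p of 0.583.

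Sp01g00067, a bZIP gene with no homolog (chromosome 1, bases 301625 to 302164), had the largest phosphate estimate in fronds. It read 1.14, 0.738, 0.806 and 0.276 FPKM in control fronds and 2.19, 2.65, 2.89 and 2.18 without phosphate, with no overlap. These values rest on few reads, 5, 3, 3 and 1 in control fronds and 7, 11, 12 and 10 without phosphate. The gene had 105 reads over the 16 libraries. The log2 difference was 1.02 ± 0.29 with an adjusted p of 0.0535. In roots it read 0.743, 2.72, 1.61 and 0.959 in control and 2.19, 1.45, 1.012 and 0.167 without phosphate, overlapping widely. The difference between the responses was -1.23 ± 0.40 with an adjusted p of 0.347, so the responses were not shown to differ. Without phosphate its level was called lower in roots than in fronds, with a log2 difference of -0.74 ± 0.29 (adjusted p 0.0303) and overlapping libraries. That call was lost with a pseudocount of 0.1, at -1.34, with the rescaled FPKM, at -0.57, and without no-phosphate frond library 6, at -0.72, or 7, at -0.69, or no-phosphate root library 7, at -0.73, or 8, at -0.47. The phosphate difference in fronds passed the threshold with the frond libraries fitted alone and without control root library 2 or no-phosphate root library 5 or 8, and without the last of these its root estimate was 0.06.

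The smallest adjusted p in roots was 0.0990, for Sp05g00328 (chromosome 5, bases 1479349 to 1482950), a homolog of the rice factor bZIP02. It read 11.9, 17.1, 12.5 and 14.0 FPKM in control roots and 10.1, 11.5, 6.25 and 5.07 without phosphate. It was the only tested bZIP gene whose root libraries did not overlap between the media. Its log2 difference was -0.74 ± 0.21, and it passed the threshold without no-phosphate root library 5, at -0.85, or 6, at -0.91. In fronds it averaged 16.4 ± 0.871 in control and 14.4 ± 3.01 without phosphate, a difference of -0.20 ± 0.21 (adjusted p 0.620).

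By role group, the phosphate estimates were small. All 10 TGA homologs had estimates below 0 in fronds, with a median of -0.19, and none was called, while 8518 of 16598 genes had estimates above 0. At least 8 of the 10 were below 0 under every alternative, but these reuse the same frond libraries, and the shared sign was not tested. The smallest adjusted p among the TGA homologs was 0.0948, for Sp04g00096, whose control fronds listed above compare with 21.3, 14.7, 17.9 and 14.7 FPKM without phosphate. In roots 4 of the 10 were above 0, and the smallest adjusted p was 0.135 for Sp10g00439, at 28.9 ± 7.64 FPKM in control roots and 18.5 ± 2.72 without phosphate. The ABF2 homolog Sp04g01377 had similar estimates in both organs, 0.51 ± 0.19 in fronds (adjusted p 0.136) and 0.53 ± 0.19 in roots (adjusted p 0.177). Its control fronds read 41.6, 49.0, 30.7 and 42.5 and its no-phosphate fronds 50.7, 64.3, 61.6 and 56.0, without overlap. Its roots overlapped, at 49.5, 46.4, 71.0 and 60.9 and 55.5, 81.4, 105 and 92.0. It passed the threshold in fronds fitted alone, and in roots without no-phosphate root library 5, at 0.71.

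The bZIP19 homologs had phosphate estimates of opposite sign in fronds, and neither was called. Sp14g00415 averaged 49.4 ± 16.3 FPKM in control fronds and 31.5 ± 8.46 without phosphate, a log2 difference of -0.61 ± 0.23 with an adjusted p of 0.147. Sp09g00323 averaged 32.5 ± 2.17 and 39.1 ± 4.26, a difference of 0.26 ± 0.12. The CPRF1 homolog Sp08g00714 differed by 0.44 ± 0.18 in fronds and 0.36 ± 0.18 in roots. RISBZ4 homolog Sp05g01060 differed by 0.28 ± 0.11 in fronds, HYH homolog Sp01g00479 by 0.36 ± 0.16 and bZIP17 homolog Sp06g00974 by 0.24 ± 0.20. In the unfolded protein response group the bZIP50 homolog Sp12g00617 had the smallest adjusted p in roots, 0.440, at 0.29 ± 0.18. PosF21 homolog Sp04g00445 differed by -0.32 ± 0.14 in fronds, its no-phosphate libraries all below the control ones, with an adjusted p of 0.209. Between organs, 25 of the 41 genes had phosphate estimates of the same sign, against 9789 of 16598 genes.

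**Figure D4:**
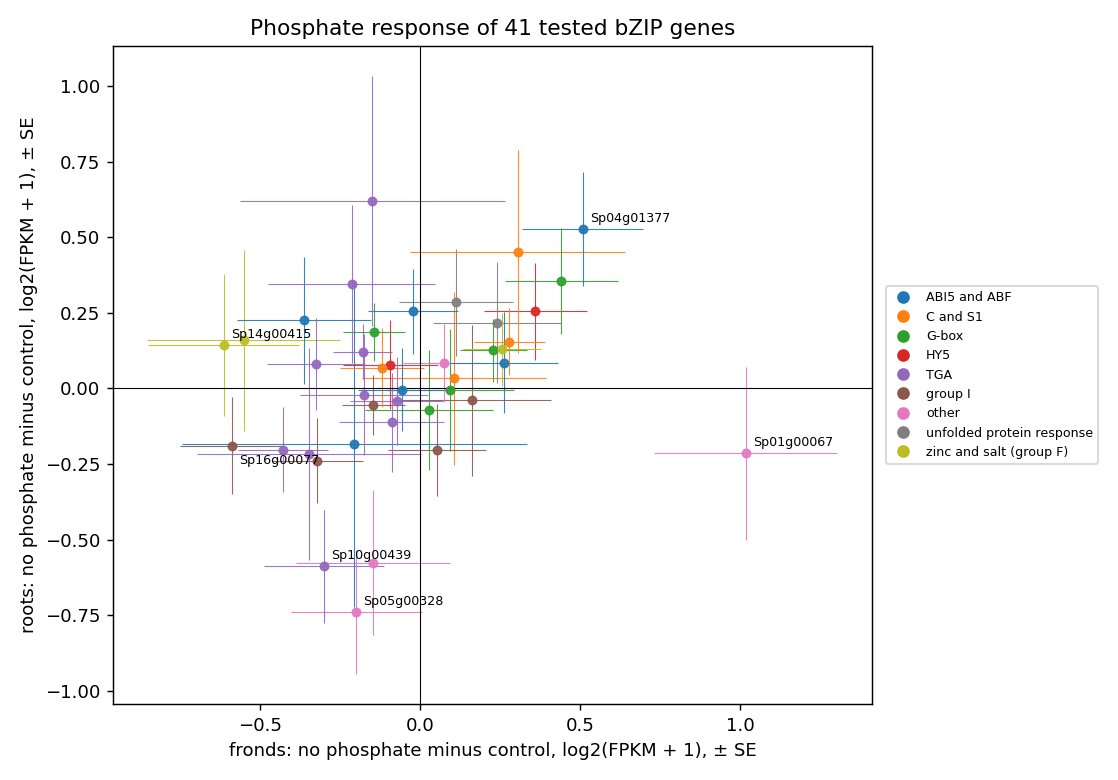
No phosphate minus control on the log2(FPKM + 1) scale in fronds (horizontal axis) and in roots (vertical axis) for the 41 tested bZIP genes, with bars for the standard error and colours for role groups. No gene passed the threshold in either organ, and the points farthest out are Sp01g00067 at 1.02 in fronds and Sp05g00328 at -0.74 in roots. Sp01g00067 had only 1 to 12 reads in a library.

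Genes known from other plants to act with these factors were counted in 6 lists matched by keyword to the homolog names. Endoplasmic reticulum folding genes, the textbook targets of bZIP17 and bZIP60, had 6 of 28 tested members higher and 0 lower in fronds without phosphate (21.4%), where 4.41% of all genes were called and 2.11% were higher. The list's median was 0.12 against 0.01 over all genes. The called members were homologs of calnexin, endoplasmin, luminal-binding protein 4, SDF2, the DnaJ protein ERDJ3B and a protein disulfide isomerase. The calnexin homolog Sp04g01156 rose from 72.9 ± 9.03 to 109 ± 5.41 FPKM (log2 0.58 ± 0.12, adjusted p 0.0161). Sp09g00188, a homolog of luminal-binding protein 4, the main chaperone of this compartment, rose from 34.9 ± 6.41 to 70.0 ± 8.15 (log2 0.99 ± 0.24, adjusted p 0.0282). The endoplasmin homolog Sp02g00784 rose by 0.70 ± 0.16 (adjusted p 0.0244). In roots 0 of the 28 were called, where Sp09g00188 had an estimate of 0.81 ± 0.24 (adjusted p 0.108), and the difference between organs was not called. The bZIP17 and bZIP50 homologs were not called beside them.

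The zinc list was matched by names of zinc and iron transporters, nicotianamine synthase and metal tolerance proteins, so not all its members take up zinc. It had 1 member higher and 1 lower of 19 in fronds without phosphate (10.5%, against 4.41% of all genes) and 0 in roots. The higher one was Sp17g00168, a homolog of the iron transporter IRT2 of rice, which rose from 41.4 ± 7.45 to 91.7 ± 12.3 FPKM (adjusted p 0.00220). The lower one was Sp12g00858, a homolog of metal tolerance protein C4, which fell from 28.02 ± 2.82 to 19.2 ± 2.59 (adjusted p 0.0421). Between organs 12 of 19 were higher in control roots and 3 lower (78.9%), against 28.8% higher, 31.0% lower and 59.8% called over all genes. Without phosphate the counts were also 12 and 3, where 67.6% of all genes were called. The higher members included Sp11g00438, a homolog of the zinc transporter ZIP5, at 59.1 ± 22.1 FPKM in control fronds and 1288 ± 313 in control roots. Sp08g00993, a homolog of ZIP4, stood at 149.9 ± 40.5 and 508 ± 31.3. The list's median was -0.13 for fronds without phosphate and 0.85 for control roots against fronds (1.00 without phosphate), and both bZIP19 homologs were higher in control roots as well.

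Light signalling genes around HY5 had 3 of 25 tested members higher and 3 lower in fronds without phosphate (24%, against 4.41% of all genes), and 0 in roots, where 0.422% of all genes were called. The higher ones included Sp06g00049, a homolog of the ultraviolet-B receptor UVR8, which went from 11.5 ± 1.38 to 30.7 ± 9.38 FPKM (adjusted p 0.00432). The lower ones were the photoreceptor homologs of cryptochrome 2 (Sp02g00054, log2 -0.64 ± 0.16), cryptochrome 1 (Sp02g00055, -0.60 ± 0.15) and phototropin 1 (Sp01g01549, -0.89 ± 0.24). In control medium 2 of the 25 were higher in roots and 13 lower (60%), with a median of -0.46, and without phosphate 6 were higher and 15 lower (84%), with a median of -0.40. Over all genes 59.8% and 67.6% were called, so the number of calls in control medium was near the background, while 31.0% and 35.0% were lower. The HY5 and HYH homologs were not called.

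The abscisic acid list had 3 of 78 tested members higher and 3 lower in fronds (7.69%, against 4.41% of all genes) and 1 higher in roots (1.28%, against 0.422%). Most of its 89 members, 62, are type 2C protein phosphatases, of which only some act on this hormone. Sp01g01711, a homolog of the Arabidopsis phosphatase P2C78, was called in both organs. It rose from 6.52 ± 0.957 to 12.0 ± 1.55 FPKM in fronds (adjusted p 0.0101) and from 5.95 ± 0.828 to 11.5 ± 1.84 in roots (adjusted p 0.0281). The root call did not hold under every alternative. With the 2 root groups fitted alone, or without no-phosphate root library 7 or 8, 0 of all genes were called in roots. In control medium 32 of the 78 were higher in roots and 11 lower (55.1%, against 59.8% of all genes), with a median of 0.26. Without phosphate 40 were higher and 13 lower (67.9%, against 67.6%), with a median of 0.43. The number of calls was near the background in either medium, while 28.8% and 32.6% of all genes were higher.

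Salicylic acid genes and partners of TGA factors had 1 of 31 tested members higher and 0 lower in fronds (3.23%, against 4.41% of all genes) and 0 in roots. That gene was Sp06g00878, a homolog of glutaredoxin C14, at 1.34 ± 0.734 FPKM in control fronds and 3.40 ± 1.30 without phosphate, and listed at 0 in all roots. Between organs in control medium 14 were higher in roots and 13 lower (87.1%, against 59.8% of all genes), with a median of 0.37. Without phosphate 13 were higher and 14 lower (87.1%, against 67.6%), with a median of 0.06. The homolog of the TGA coactivator NPR1, Sp08g00982, stood at 10.1 ± 1.49 FPKM in control fronds and 27.1 ± 5.79 in control roots (log2 1.33 ± 0.25, adjusted p 2.13e-04). Its relative Sp01g00750, a homolog of NPR5, was lower in roots, with a log2 difference of -0.97 ± 0.19. Glutaredoxin C2 homolog Sp08g00324 was higher in roots, at 1.42 ± 0.10.

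Low-energy genes around the C and S1 groups had 1 of 38 tested members higher and 1 lower in fronds (5.26%, near the 4.41% of all genes) and 0 in roots. The trehalose phosphate synthase homolog Sp08g00447 (TPS7) rose from 3.36 ± 1.26 to 6.92 ± 0.624 FPKM in fronds, and the branched-chain aminotransferase homolog Sp06g00537 fell from 19.1 ± 0.903 to 12.4 ± 1.82. In control medium 10 of the 38 were higher in roots and 13 lower (60.5%), with a median of -0.21, and without phosphate 10 were higher and 16 lower (68.4%), with a median of -0.30. Both shares were near the 59.8% and 67.6% of all genes, whose median was -0.02 in either medium.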

How the data were processed

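Reads of 16 pools of fronds or roots were 150.0 bp pairs, per the labels' protocols. HISAT2 2.0.5 and featureCounts 1.5.0-p3 are named in the submitters' processing notes. Neither the genome build nor the annotation nor the strand setting is stated there, and coordinates are those of the deposited table. The unit of the deposited table is FPKM, per its headers. Multiplied by the deposited gene length, 100% of values were whole multiples of 1 step in each library (tolerance 0.001 reads). Those multiples are the recovered reads, and the step implies a library size of 0.886 to 1.14 times their sum, so the authors applied a scaling that is not described. The factor ran from 0.886 to 0.970 in frond libraries and from 1.03 to 1.14 in root libraries, so it cannot be told apart from organ. Lengths were multiples of 3 in 98.4% of genes and are called coding length. The table left 1 line not used here, and 0 columns were left unmapped.

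Columns show organ and medium and carry a number, from 1 to 4 in control libraries and from 5 to 8 in those lacking phosphate. The number does not show the labelled replicate, so libraries are named by group and number. Fronds and roots of a flask share their plants, but which columns belong to 1 flask is not shown. Replicates of a group all differed by more than sampling noise, the lowest ratio of chi-square to degrees of freedom being 3.68.

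The 16598 of 20389 genes that averaged 0.5 FPKM or more were fitted as log2(FPKM + 1) with a mean for each group of the 16 libraries (R 4.3.3, limma 3.58.1, statmod 1.5.0, trended and robust prior). Tests were two-sided, adjusted by Benjamini-Hochberg within a contrast and called under 0.05. The fit was tested on simulated data. Libraries were drawn independently, each gene had a spread averaged over the 4 groups, and the same genes changed in both organs. In fronds the fit called 22.2% of 1.5-fold and 57% of 2-fold phosphate changes, and in roots 23% and 56%. As both organs were given the same spread, this cannot show whether root changes are found as readily as frond changes. False calls made up 7.28% of the calls in fronds and 5.63% in roots. Differences on this scale understate those of low genes. Alternatives were a pseudocount of 0.1, no filter, FPKM rescaled to 1 sum, an ordinary prior, the 2 groups alone, a block on column number and each library left out.

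The members, role groups and keyword lists were chosen with earlier results of these data known, and no list was tested as a set. Role groups follow the homolog names and, for 3 genes, the MFMR domain. Named genes are the largest tissue differences in control medium, up to 10 each way among called genes (10 were higher in roots and 6 lower), the 5 highest means, the smallest adjusted p of each role group in fronds and in roots, and up to 4 genes of each list by adjusted p. The others were named after their values were seen, to complete a role group or to give a list member. Stray keyword matches include 2 TORTIFOLIA1-like genes in the salicylic acid list and an inorganic pyrophosphatase in the abscisic acid list.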

Additional observations from a re-analysis of the deposited data

Results flagged for a closer look

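Dixon's test for a single sample apart from the other 3 of its group, at its 95% critical value, singled out 7 of 164 groups of 4 libraries over the 41 tested bZIP genes, and chance gives about 1 in 20. In control fronds, library 1 was the lowest for the HYH homolog Sp01g00479, at 59.8 FPKM where the others read 65.9 to 66.7, and for the RISBZ4 homolog Sp05g01060, at 14.2 where the others read 18.1 to 18.9. Library 3 of the control fronds was the highest for the TGAL4 homolog Sp10g00439, at 8.95 against 5.68 to 6.24. In control roots, library 1 was the highest for the bZIP17 homolog Sp06g00974, at 33.2 against 15.8 to 16.8. Library 2 of the control roots was the highest for the rice bZIP06 homolog Sp08g00596, at 38.5 against 32.8 to 33.7. In no-phosphate roots, library 8 was the lowest for the PosF21 homolog Sp16g00151, at 11.05 against 13.5 to 14.0. Library 6 of the no-phosphate roots was the lowest for the TGA10 homolog Sp12g00578, at 11.1 against 15.7 to 16.3.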

How the results depend on the processing

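Over the 22 alternatives run for each organ comparison, the number of bZIP genes called stayed within 1.5 times that reported. With 41 genes tested, this limit could hardly be exceeded upward. It also ignores the direction of the calls, which the rescaled FPKM moved. Leaving out a library gave 22 to 26 calls in control medium and 26 to 29 without phosphate. Over all genes it gave 55.8% to 61% called in control medium and 64.5% to 68.1% without phosphate. The 10 TGA homologs were called higher in roots in each of the 22 alternatives. For the phosphate response in fronds, where 0 genes were called, the rescaled FPKM gave 1 call and the 2 groups fitted alone gave 3, and leaving out a library gave 0 to 2. Leaving out a library gave 0 to 2 calls in roots and 0 to 0 for the difference between organs. Frond calls came without no-phosphate frond library 8 (1 call), control root library 2 (1), and no-phosphate root libraries 5 (2), 6 (1) and 8 (1). Root calls came without no-phosphate root libraries 5 (2) and 6 (1). Over all genes the phosphate calls moved widely. In fronds they were 732 as reported, 153 without no-phosphate frond library 5 and 1772 with the frond groups fitted alone. In roots they were 70 as reported, 0 with the root groups fitted alone and 791 without no-phosphate root library 5. The phosphate calls given for the keyword lists are those of the main fit only. The cause was not tested.

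Of 1028 values of 28 genes under alternatives, 996 kept their direction and side of the threshold, 17 lost a call, 13 gained one and 2 changed sign. The sign changes were those of the PosF21 homolog Sp16g00151 between organs in control medium, at 0.0018 with the rescaled FPKM, and Sp01g00067 in roots, whose estimate ran from -0.42 without no-phosphate library 5 to 0.061 without library 8. The cause was not tested.

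With a block on the column number shared by fronds and roots, 23 bZIP genes were called in control medium (18 higher in roots, 5 lower), 28 without phosphate (21 higher, 7 lower) and 0 for the difference. Over all genes this fit called 58.4% in control medium (4662 higher, 5038 lower) and 66.3% without phosphate (5327 higher, 5675 lower). For the difference it called 0.012%. Deviations of equally numbered frond and root columns correlated at -0.12 to 0.15, and 3 of 8 frond columns correlated best with their own number, so the numbers were not taken as pairs. The columns do not show which fronds and roots came from the same flask, so the organ comparisons treated the 16 libraries as independent. For control against no phosphate the columns carry no number that the groups share, and no pairing was used there either. The planned count test on recovered reads is not reported, because the deposited unit is FPKM. Depth limits the lowest genes, where 1 library can hold a few reads or none.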

Other observations

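Sp12g00338, a bZIP gene without a Swiss-Prot homolog, fell under the minimum level and was not tested. It had 32 reads in all. Control roots read 0.439, 0.402, 0 and 0.170 FPKM and no-phosphate roots 1.06, 0.699, 0.449 and 1.33, without overlap, while control and no-phosphate fronds averaged 0.105 ± 0.122 and 0.123 ± 0.144. The gene was picked out after its values were seen.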
